A study of Mus musculus with 6 samples.

Results

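Open chromatin was compared between T helper cells that make the cytokines of allergy (Th2) and T helper cells that make interleukin 17 (Th17). The comparison used 4 of the 6 ATAC-seq libraries of the series, 2 of Th2 and 2 of Th17 cells, each with its own list of peaks. In ATAC-seq the transposase Tn5 cuts and tags DNA that is not packed away by nucleosomes, so that a peak marks accessible chromatin. Wherever peaks of the 4 lists on chromosomes 1 to 19 overlapped or touched, they were merged, which gave 188666 regions. Of these, 15558 were called in both Th2 libraries and neither Th17 library (Th2-alone regions), 5929 were called in both Th17 libraries and neither Th2 library (Th17-alone regions), and 59799 were called in all 4 (shared regions). The other 107380 were called in other combinations of libraries and entered none of these 3 sets.

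All 4 libraries came from wild-type C57BL6/J mice, from naive CD4 T cells of the spleen that were activated in culture through CD3 and CD28. Th2 cells were grown with interleukin 4, human interleukin 2 and an antibody against interferon gamma. Th17 cells were grown with interleukin 6, TGF-beta 1, interleukin 23 and interleukin 1 beta, together with antibodies against interferon gamma, interleukin 4 and interleukin 2, so the cultures differed in interleukin 2 as well as in the polarizing cytokines. Dead cells were removed, and the methods describe no sort for cytokine-producing cells, so each library is an average over a culture. The labels number the libraries of each subset 1 and 3 and do not say whether they came from separate animals or cultures, so p-values measure only the spread between these libraries, which may be technical. With bulk libraries, fewer cells with an open region and less opening per cell cannot be told apart.

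Th2 cells are driven by interleukin 4 acting through the factors STAT6 and GATA3, and they secrete interleukins 4, 5 and 13, whose genes lie side by side on a chromosome with the Rad50 gene, in which a control region for the cytokine genes is found. Th17 cells arise under TGF-beta and interleukin 6, are maintained by interleukin 23 and secrete interleukins 17A and 17F from neighbouring genes. Distal elements such as enhancers differ between cell types more than promoters do, and they are bound by families of factors that each recognise a short DNA word.

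Sequences of 8 regions are shown because they carry the cytokine, receptor and regulator results described next, and because they show the words whose frequency was followed across the sets. They were chosen after the word matches had been seen. Each is up to 300 bases of the plus strand of GRCm38 (mm10), read from left to right in the direction of rising coordinates, from a part of the region that overlaps no annotated exon. Capitals mark matches, on either strand, to AGATAA (the word of GATA factors), TGANTCA (AP-1), TGTGGTT (RUNX) and CTTTGAA (TCF and LEF). Among all 188666 regions, the central 300 bases held these words in 12.5%, 12.6%, 7.23% and 5.54% of regions. TGANTCA reads the same on both strands and was counted once at each position. A match describes letters and does not show that a factor is bound.

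The following 4 regions were called in Th2 alone or ranked higher in Th2. The Il13 region (chr11:53636043-53636342) lay 0.97 kb upstream of the Il13 start, was called in Th2 alone and held 1 AP-1 word. The Il10 region (chr1:130989942-130990241) lay 29 kb upstream of Il10, was called in Th2 alone and held 2 GATA words and 1 AP-1 word. The Il4ra region (chr7:125543491-125543790) lay 8.01 kb upstream of the gene for the interleukin 4 receptor alpha chain, was shared and ranked higher in Th2, and held 1 GATA and 1 AP-1 word. The Foxp1 region (chr6:99406126-99406425) lay in an intron 28.6 kb past a start of Foxp1, a forkhead factor of quiescent T cells, was shared and ranked higher in Th2, and held 2 AP-1 words.
Il13 upstream region: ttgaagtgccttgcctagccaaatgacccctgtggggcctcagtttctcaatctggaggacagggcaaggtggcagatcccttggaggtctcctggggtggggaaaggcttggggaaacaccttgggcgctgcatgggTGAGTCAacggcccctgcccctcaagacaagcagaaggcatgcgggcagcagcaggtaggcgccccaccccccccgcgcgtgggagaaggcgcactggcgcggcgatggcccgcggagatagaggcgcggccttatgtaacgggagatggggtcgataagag
Il10 upstream region: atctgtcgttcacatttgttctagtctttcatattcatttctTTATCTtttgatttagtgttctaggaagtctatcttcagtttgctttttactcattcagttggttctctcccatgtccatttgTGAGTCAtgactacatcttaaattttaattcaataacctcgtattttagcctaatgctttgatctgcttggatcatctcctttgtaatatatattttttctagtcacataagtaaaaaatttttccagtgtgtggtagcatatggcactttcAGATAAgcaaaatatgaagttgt
Il4ra upstream region: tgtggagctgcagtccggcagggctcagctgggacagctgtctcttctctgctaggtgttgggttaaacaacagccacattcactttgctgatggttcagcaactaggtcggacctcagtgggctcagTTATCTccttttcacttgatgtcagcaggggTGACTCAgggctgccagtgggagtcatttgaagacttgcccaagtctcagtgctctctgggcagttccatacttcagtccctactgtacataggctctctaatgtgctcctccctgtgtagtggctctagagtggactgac
Foxp1 intron region: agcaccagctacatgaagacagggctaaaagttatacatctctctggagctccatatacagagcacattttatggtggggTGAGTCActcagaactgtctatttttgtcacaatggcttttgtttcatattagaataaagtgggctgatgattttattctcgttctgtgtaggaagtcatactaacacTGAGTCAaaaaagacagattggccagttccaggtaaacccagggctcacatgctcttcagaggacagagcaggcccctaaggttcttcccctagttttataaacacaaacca

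The other 4 were called in Th17 alone or ranked higher in Th17. The Il17f sequence (chr1:20784271-20784570) is the promoter just upstream of the Il17f start, which lies on the minus strand, was called in Th17 alone and held 1 RUNX word. The Il17a region (chr1:20685819-20686118) lay 44.7 kb upstream of Il17a, was called in Th17 alone and held 1 RUNX and 1 TCF word. The Il7r region (chr15:9574911-9575210) lay 44.9 kb upstream of the interleukin 7 receptor gene, was shared and ranked higher in Th17, and held 2 RUNX words and 1 TCF word. The Ifng region (chr10:118458816-118459115) lay 17.7 kb downstream of the interferon gamma start, was shared and ranked higher in Th17, and held 3 AP-1 words and 1 RUNX word.
Il17f promoter: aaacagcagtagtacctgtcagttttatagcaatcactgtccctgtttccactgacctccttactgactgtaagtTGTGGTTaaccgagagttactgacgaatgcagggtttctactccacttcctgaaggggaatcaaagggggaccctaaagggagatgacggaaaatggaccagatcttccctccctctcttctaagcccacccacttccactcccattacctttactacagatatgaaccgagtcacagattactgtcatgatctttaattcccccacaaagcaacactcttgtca
Il17a upstream region: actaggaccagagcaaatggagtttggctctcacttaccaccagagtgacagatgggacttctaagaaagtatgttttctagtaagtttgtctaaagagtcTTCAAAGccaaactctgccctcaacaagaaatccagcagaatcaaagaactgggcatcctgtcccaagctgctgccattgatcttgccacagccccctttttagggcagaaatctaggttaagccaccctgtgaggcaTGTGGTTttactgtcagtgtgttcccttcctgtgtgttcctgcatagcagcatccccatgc
Il7r upstream region: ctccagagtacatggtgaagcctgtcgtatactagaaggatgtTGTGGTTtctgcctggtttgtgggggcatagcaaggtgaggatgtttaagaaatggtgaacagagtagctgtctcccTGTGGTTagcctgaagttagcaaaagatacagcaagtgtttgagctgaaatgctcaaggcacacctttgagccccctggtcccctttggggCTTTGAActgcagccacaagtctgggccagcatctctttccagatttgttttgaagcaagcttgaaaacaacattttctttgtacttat
Ifng downstream region: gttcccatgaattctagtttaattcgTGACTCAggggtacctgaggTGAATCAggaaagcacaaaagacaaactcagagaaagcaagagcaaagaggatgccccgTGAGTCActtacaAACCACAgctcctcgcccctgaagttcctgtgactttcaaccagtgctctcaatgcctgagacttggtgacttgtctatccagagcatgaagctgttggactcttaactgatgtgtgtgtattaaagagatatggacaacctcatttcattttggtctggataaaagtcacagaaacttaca

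The lists held 136961 and 116143 peaks for Th2 replicates 1 and 3 and 120687 and 94854 peaks for Th17 replicates 1 and 3. The lists give no read counts. The mean background coverage recovered from the fold enrichment and p-value of flat peaks was 11.2 and 15.2 fragments in Th2 and 14.4 and 17.7 in Th17, and the lowest fold enrichment called was 1.81 and 1.73 in the Th2 lists and 1.76 and 1.71 in the Th17 lists. The base pairs that 2 lists shared, as a fraction of those either covered, were 0.550 for the Th2 pair, 0.564 for the Th17 pair and 0.473 to 0.483 for the 4 pairs across subsets. To compare regions across lists, the fold enrichment of each peak was turned into its percentile within its own list, where 100 is the strongest peak. Over shared regions the percentiles correlated with a Spearman coefficient of 0.904 within Th2, 0.916 within Th17 and 0.808 to 0.845 across subsets, as a description over regions that share their libraries.

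The marker genes of each subset were open in the libraries of that subset. A region over the start of Il4 was at percentile 87.6 and 88.1 in the Th2 libraries and was called in neither Th17 library. A region 0.97 kb upstream of Il13 was at 87.6 and 86.7 in Th2 and was likewise called in no Th17 library. The start of Il17f was at 86.4 and 87.1 in Th17 and was called in no Th2 library. The start of Il23r, the receptor chain that gives Th17 cells their response to interleukin 23, was called in Th17 alone, at 12.1 and 61.2, with its replicates far apart. A shared region in an intron of Il23r, 8.11 kb past the start, was at 56 and 43.4 in Th2 against 96 and 87.9 in Th17. The difference of the normal scores of these percentiles, Th17 minus Th2, was 1.46 with a standard error (SE) of 0.23 (adjusted p = 0.0052 by limma, over all shared regions), and both Th17 libraries stood above both Th2 libraries. That order held in 17.8% of all shared regions and in every shared region that this test called higher in Th17.

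The promoters of markers of other cells that the spleen could supply were mostly closed. No library had a peak within the promoter window (from 1000 bases upstream to 100 bases downstream of a start) of Pax5, Cd79a, Ms4a1 or Blk of B cells, Lyz2, Csf1r, Itgam or Mpo of myeloid cells, Ncr1 of NK cells or Cd8a of CD8 T cells. The promoters of Ebf1, Cebpa and Cd8b1 were called in all 4 libraries, that of Cd14 in 3 and that of Klrb1c in 1. Gata1 and Alas2 of erythroid cells are not on chromosomes 1 to 19, and the globin gene Hbb-bt, called in all 4, had a start region at 86.9 and 69.1 in Th2 and 25 and 32.8 in Th17 (adjusted p = 0.0347, limma). Within 100 kb, 3 of 24 regions of B cell markers, 5 of 22 of myeloid markers and 1 of 16 of NK and CD8 markers were called in Th2 alone (12.5%, 22.7% and 6.25%, against 9.31% of all regions within 100 kb of a start), 0, 0 and 1 in Th17 alone, and none of their shared regions passed the test. The part of erythroid or myeloid cells in the results was not tested.

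Th2-alone regions made up 8.25% of all regions and Th17-alone regions 3.14%. Most were of moderate strength. The mean percentile of the 2 libraries had a median of 45.1 over Th2-alone regions and of 35.5 over Th17-alone regions, and it reached 80 in 1340 Th2-alone regions (8.61%) and in 167 Th17-alone regions (2.82%). Th2-alone regions spanned a median of 559 bases and Th17-alone regions 480, against 1221 for shared regions. With lists set to equal length by their p-values the counts were 10758 and 7546, and keeping peaks of fold enrichment 2.2 or more, so that the lists start at a similar level, they were 10888 and 2782. Leaving out a library, after which 1 library decides for its subset, gave 31440 and 12037 without Th2 replicate 1, 43237 and 9693 without Th2 replicate 3, and 25601 and 14143 without Th17 replicate 1. Without Th17 replicate 3 the order turned, with 18873 Th2-alone and 24434 Th17-alone regions. Counted by replicate number in place of subset, 7439 regions were called in both replicate 1 libraries alone and 1559 in both replicate 3 libraries alone.

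Of 59799 shared regions, 1836 ranked higher in Th2 (3.07%) and 414 ranked higher in Th17 (0.692%) at an adjusted p under 0.05 by limma with a mean-dependent prior. At an unadjusted p under 0.05 the counts were 6151 and 2704. The median shift of the called regions was 25.4 percentile points towards Th2 and 32.4 points towards Th17, while the median over all shared regions was -0.398 points (Th17 minus Th2). Of the calls, 81.6% were higher in Th2. The calls rest on that prior. Without the mean trend limma made 0 calls in either direction (5192 and 2378 at an unadjusted p under 0.05; lowest adjusted p 0.185). When percentiles were taken among shared regions only, 2367 regions were higher in Th2 and 1169 in Th17 (66.9% higher in Th2), and with quantile-normalized log2 fold enrichment 2932 and 1605 (64.6%). Leaving out Th17 replicate 1 gave 2836 and 95, leaving out Th17 replicate 3 gave 1534 and 174, leaving out Th2 replicate 1 gave 1709 and 1424, and leaving out Th2 replicate 3 gave 2405 and 896, so the Th17 count moved by over 1.5 times with each library. At the edge of the called set, a region 23.7 kb upstream of Mgst2 was at 95.1 and 95.3 in Th2 and 86.5 and 86.7 in Th17 and passed, and a region 43.4 kb upstream of Rassf3 at 95.2 and 92.6 in Th2 and 84.6 and 80.4 in Th17 did not.

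**Figure D1:**
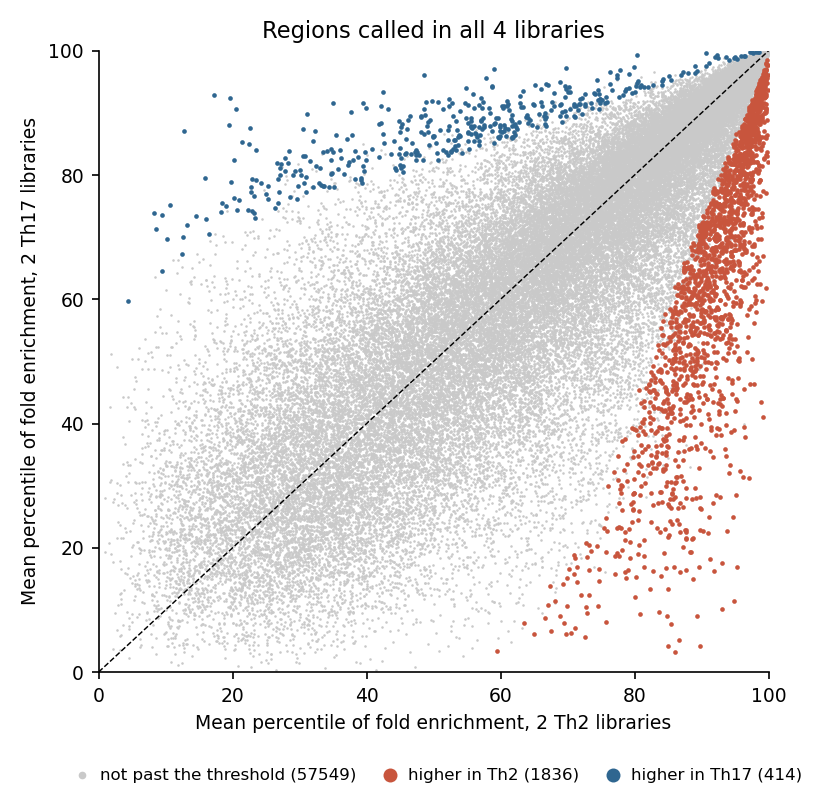
Mean percentile of fold enrichment in the 2 Th2 libraries (x axis) and in the 2 Th17 libraries (y axis) for the 59799 regions called in all 4, with the 1836 regions higher in Th2 in red, the 414 higher in Th17 in blue, the rest in grey and equal percentiles on the dashed line. The called regions lie at the edges of the cloud, and more of them lie below the line than above it.

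Th2 genes were described by a list of 17 genes with 169 nearest regions within 100 kb. Of their 56 shared regions, 9 (16.1%) ranked higher in Th2 and 0 in Th17, where 3.29% and 0.712% of all shared regions within 100 kb of a start did. The median shift over the 56 was -6.68 percentile points (Th17 minus Th2), against -0.565 over all shared regions within 100 kb. Of the 169 regions, 27 (16%) were called in Th2 alone and 8 (4.73%) in Th17 alone, where 9.31% and 3.13% of all regions within 100 kb of a start were. By genes, 11 of 17 were nearest to at least 1 Th2-alone region and 5 to at least 1 Th17-alone region, against 29.9% and 13.2% of 20807 protein-coding genes, and 8 were nearest to a shared region higher in Th2, against 5.99%. A gene with many regions around it reaches such a count more easily, and the list was chosen with earlier results of these data known.

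Among the 6 cytokine genes of the list, 14 of 57 regions were called in Th2 alone and 0 in Th17 alone. Il4, Il5 and Il13 together had 20 nearest regions, of which 10 were called in Th2 alone, 1 ranked higher in Th2 and 0 were called in Th17 alone. In the introns and exons of Rad50, upstream of Il13, a region at 16.1 kb (chr11:53650824-53651704) was at 84.7 and 89.4 in Th2 and not called in Th17. A region at 19.8 kb (chr11:53654539-53655550) was at 91.6 and 86.7 in Th2 and not called in Th17. Another, at 22 kb (chr11:53656658-53657926), was open in every library, with percentiles of 93.3 and 89.8 in Th2 against 72.7 and 63.7 in Th17 (score difference -0.91, SE 0.18, adjusted p = 0.0165). Thus 2 of these 3 neighbouring elements of Rad50 were open in Th2 alone and the other was open in both subsets at a higher rank in Th2. A region 23.9 kb downstream of the Il4 start, inside Kif3a (chr11:53592311-53593469), was at 74.6 and 64.9 in Th2 and not called in Th17.

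Il10, which encodes an anti-inflammatory cytokine made by several T helper subsets, had 18 nearest regions. Its start was called in Th2 alone at 40.8 and 49.1, a region 8.08 kb downstream at 76.5 and 82.6 and the printed region 29 kb upstream at 72.2 and 65.4. A shared region 8.38 kb upstream was at 90.1 and 90.8 in Th2 and 75.4 and 59.5 in Th17 (adjusted p = 0.032). Il24, a cytokine gene of the interleukin 10 family, had a region of 3003 bases 4.95 kb upstream of its start at 91.7 in both Th2 libraries and in no Th17 library, while its start region was at 72.7 and 61.8 in Th2 and 85.9 and 78.7 in Th17 (adjusted p = 0.299). The start of Areg, which encodes an epidermal growth factor receptor ligand, was at 92.9 and 95.7 in Th2 and 91.7 and 93.0 in Th17 (adjusted p = 0.735), so the libraries of the subsets overlapped there.

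Receptor genes of Th2 cells had 3 of 15 shared regions higher in Th2 and 0 higher in Th17, against 3.29% and 0.712% within 100 kb of any start. Of their 37 regions, 2 were called in Th2 alone and 3 in Th17 alone, where 9.31% and 3.13% of all regions within 100 kb were. The Th2-alone share of these receptor genes was thus below that of all regions and the Th17-alone share above it. The start of Ccr8, a chemokine receptor of Th2 cells, was at 94.7 and 94.3 in Th2 and 58.2 and 48.9 in Th17 (score difference -1.51, SE 0.18, adjusted p = 0.0015). A region for which Ccr4, another such receptor, is the nearest start, 23.6 kb away in an intron of Glb1, was at 94.9 and 92.9 in Th2 and 66.2 and 65.9 in Th17 (adjusted p = 0.0036). The Il4ra region printed above was at 96.4 and 96.7 in Th2 and 89.8 and 88.1 in Th17 (adjusted p = 0.0328). In all 3 both Th2 libraries stood above both Th17 libraries, by the least at Il4ra. That order held in 25% of all shared regions and in all 1836 called higher in Th2. The start of Ccr4 itself was at 84.8 and 82.3 in Th2 and 86.0 and 83.4 in Th17 (adjusted p = 0.951). Il1rl1, the receptor for interleukin 33, had 10 nearest regions and none in the 4 called sets, and its promoter was called in Th2 replicate 3 alone.

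The start of Gata3, the defining factor of Th2 cells, was open in both subsets, at 87.5 and 89.9 in Th2 and 87.9 and 87.5 in Th17 (adjusted p = 0.942). Around it, a region 17.3 kb past the start was at 80.02 and 76.9 in Th2, a region 62.2 kb past it at 79.1 and 79.0 and a region 85.8 kb past it at 63.1 and 66.2, all 3 called in no Th17 library. A region 80.7 kb past the start was called in Th17 alone at 63.8 and 40.4. Distal elements of this gene therefore differed while its start did not pass the test.

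Of the other factors, Bhlhe41, a helix-loop-helix repressor, had 2 of its 7 shared regions higher in Th2. That 15.4 kb past its start was at 99.7 and 98.4 in Th2 and 90.6 and 72.3 in Th17 (adjusted p = 0.0047), and that 27.3 kb upstream was at 97.1 and 93.5 in Th2 and 86.2 and 73.5 in Th17 (adjusted p = 0.0269). Nfil3, a leucine zipper factor, had 4 Th2-alone regions and a shared region 4.16 kb upstream at 93.1 and 88.2 in Th2 and 70.3 and 55.5 in Th17 (adjusted p = 0.0181). Pparg, a nuclear receptor for lipids, had a shared intron region at 88.1 and 91.1 in Th2 and 62.7 and 25.8 in Th17 (adjusted p = 0.0185), where the Th17 libraries lay far apart. Epas1, which encodes the hypoxia factor HIF-2 alpha, was the exception among the factors, with 4 Th17-alone and 2 Th2-alone regions among 31. Under the 10 alternative settings of the limma fit, the 9 shared regions of Th2 genes that passed kept their direction wherever they were tested. In all 1836 regions called higher in Th2 the libraries did not overlap between subsets, so the kept direction adds no support. With all 4 libraries and the trend kept, the calls of the list in favour of Th2 numbered 8 to 15, and without the trend 0. Calls of the list in favour of Th17 numbered 0 to 1 in these settings.

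**Figure D2:**
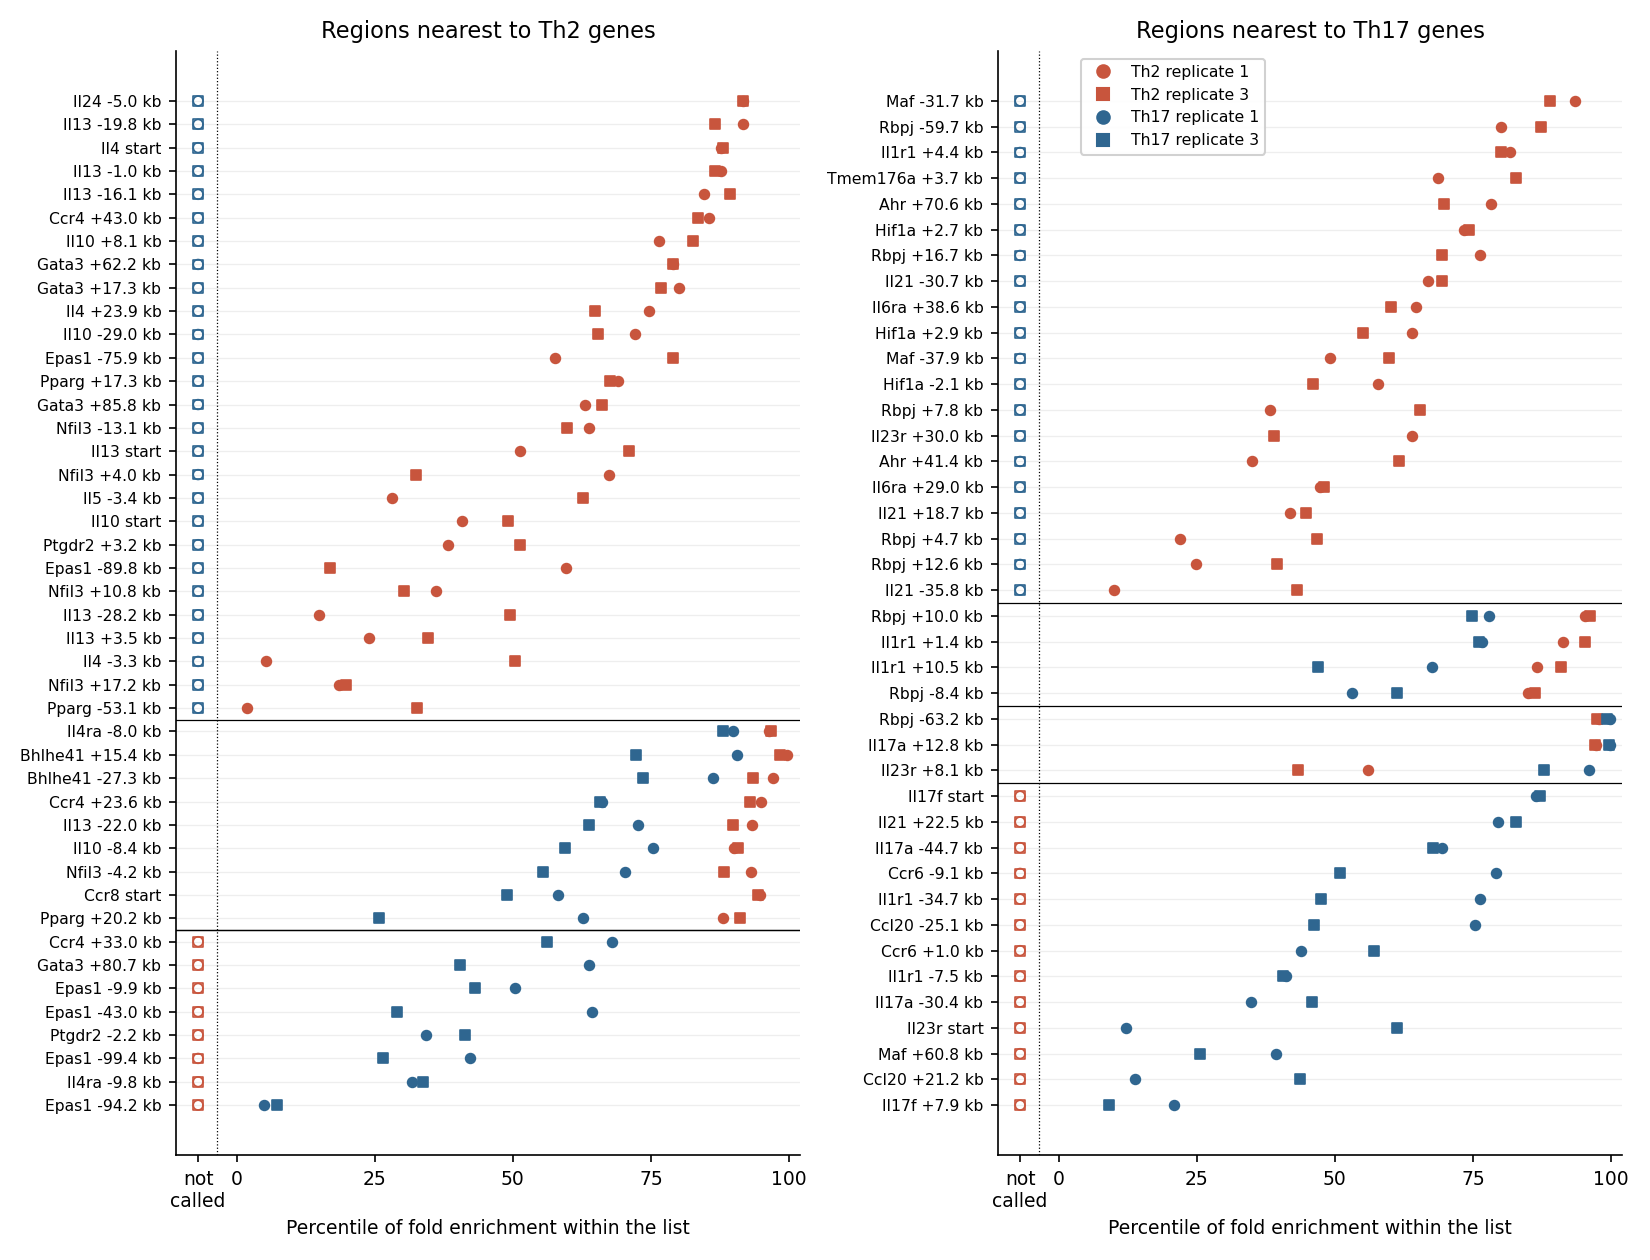
Percentile of fold enrichment in each library (x axis, with open symbols at the left where the region was not called) for regions nearest to Th2 genes (left) and Th17 genes (right), named by gene and signed distance to its start, with Th2 in red, Th17 in blue, replicate 1 as circles and replicate 3 as squares. From top to bottom, black lines separate regions called in Th2 alone, shared regions higher in Th2, shared regions higher in Th17 and regions called in Th17 alone, and Th2 genes have no region in the set of shared regions higher in Th17.

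Th17 genes, a list of 16 genes with 176 nearest regions, were less one-sided. Of their 69 shared regions, 3 (4.35%) ranked higher in Th17 and 4 (5.80%) higher in Th2, with a median shift of -1.02 percentile points (Th17 minus Th2). Of the 176, 13 (7.39%) were called in Th17 alone and 20 (11.4%) in Th2 alone. By genes, 8 of 16 were nearest to at least 1 Th17-alone region and 3 to a shared region higher in Th17, against 13.2% and 1.49% of all genes, and 9 of 16 were nearest to at least 1 Th2-alone region. Both the Th17 shares and the Th2 shares of this list were above those of all regions within 100 kb of a start.

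The cytokine and chemokine genes of the Th17 list had 7 Th17-alone and 3 Th2-alone regions among 52. Il17a and Il17f together had 27 nearest regions, with 4 called in Th17 alone, 1 higher in Th17 and 0 called in Th2 alone. The Il17a region printed above, 44.7 kb upstream, was at 69.5 and 67.8 in Th17. A shared region 12.8 kb past the Il17a start (chr1:20743716-20744474) was among the strongest of every list, at 97.3 and 97.1 in Th2 and 99.9 and 99.6 in Th17 (score difference 0.96, SE 0.16, adjusted p = 0.0072). This element was therefore open in Th2 cells as well, 2.54 points lower on average. The promoter of Il17a was called in both Th17 libraries, at 81.0 and 68.8, and in Th2 replicate 3 at 36, and so entered no set.

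Il21, a cytokine gene of Th17 and follicular helper cells, had a Th17-alone region 22.5 kb past its start at 79.6 and 82.7 and 3 Th2-alone regions, the strongest 30.7 kb upstream at 66.9 and 69.4. Its start was at 95.1 and 88.2 in Th2 and 94 and 89.9 in Th17 (adjusted p = 0.994). No promoter peak was called at Il22 in any library. Ccl20 and its receptor Ccr6, which guide Th17 cells to mucosa, had 2 Th17-alone regions each and no Th2-alone region, and the strongest was 9.08 kb upstream of Ccr6 at 79.2 and 50.9. The region of 2530 bases that spans the Ccr6 start was shared, at 71.4 and 56.3 in Th2 and 64.0 and 47.9 in Th17 (adjusted p = 0.849), but within the promoter window itself a peak was called in 2 libraries, Th2 replicate 1 at 7.48 and Th17 replicate 3 at 47.9.

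Some genes of the Th17 list had regions that ranked higher in Th2. Il1r1, the receptor for interleukin 1, had a shared region 1.45 kb past a start at 91.3 and 95.3 in Th2 and 76.6 and 76.1 in Th17 (adjusted p = 0.0199). Another, 10.5 kb past a start, was at 86.5 and 91.0 in Th2 and 67.6 and 46.9 in Th17 (adjusted p = 0.025), and a region 4.37 kb past a start was called in Th2 alone at 81.6 and 80.1. On the same gene, 2 upstream regions were called in Th17 alone, 34.7 kb away at 76.3 and 47.5 and 7.55 kb away at 41.2 and 40.7. Il1r1 thus had intron elements that were called in Th2 alone or ranked higher in Th2, and upstream elements called in Th17 alone.

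Rbpj, the factor that carries Notch signals to genes, moved both ways. The shared regions 9.96 kb past a start (95.3 and 96.2 in Th2, 77.8 and 74.9 in Th17, adjusted p = 0.0041) and 8.38 kb upstream (84.9 and 86.3 in Th2, 53.0 and 61.3 in Th17, adjusted p = 0.0359) ranked higher in Th2. The region 63.2 kb upstream ranked higher in Th17, at 97.8 and 97.5 in Th2 and 99.9 and 99.3 in Th17 (adjusted p = 0.0437), and 5 regions of the gene were called in Th2 alone. Maf, a factor that both subsets use, had a Th2-alone region 31.7 kb upstream at 93.5 and 88.9. The starts of Ahr, Maf, Rbpj and Hif1a were called in all 4 libraries at percentiles of 86.6 to 98.7 and did not pass the test (adjusted p 0.468 to 0.881). Among the transcription factors of the Th17 list, 12 of 74 regions were called in Th2 alone and 1 in Th17 alone.

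Signals from the culture were followed with 2 further lists. The 11 genes that interleukin 2 induces had 23 of 121 regions (19%) called in Th2 alone, 4 (3.31%) called in Th17 alone, and 4 of 52 shared regions (7.69%) higher in Th2 with 0 higher in Th17. Over all regions within 100 kb of a start these shares were 9.31%, 3.13%, 3.29% and 0.712%, so the Th17-alone share was near that of all regions. The median shift over the 52 was -2.33 points (Th17 minus Th2). Socs1, a feedback inhibitor of cytokine receptors, and Lif, a cytokine gene, had 6 Th2-alone regions each. The related inhibitor Socs2 had 2 shared regions higher in Th2, 42.5 kb past its start at 97.8 and 93.9 against 80.2 and 44.2 (adjusted p = 0.0131) and 25.5 kb upstream at 86.9 and 91.1 against 64.8 and 62.3 (adjusted p = 0.0215). A shared region 76.6 kb past the Lif start was at 82.0 and 82.7 in Th2 and 39.6 and 42.5 in Th17 (adjusted p = 0.0234). A region in Bcl2, a survival gene, 99.0 kb past the start was at 97.7 and 96.8 in Th2 and 90.7 and 87.5 in Th17 (adjusted p = 0.0205). The starts of 10 of these 11 genes were called in all 4 libraries.

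The 8 genes that TGF-beta induces had 5 of 95 regions (5.26%) called in Th2 alone and 6 (6.32%) in Th17 alone, against 9.31% and 3.13% of all regions, so that, unlike in the other lists of T cell genes, Th2-alone regions were not the more numerous. Its median shift was 0.230 points over 52 shared regions. Smad7, an inhibitor of TGF-beta receptors, had a shared region 62.1 kb upstream at 35.8 and 6.12 in Th2 and 76.0 and 76.1 in Th17 (adjusted p = 0.0484) and another 48.8 kb past its start at 95.6 and 97.2 in Th2 and 87.2 and 85.5 in Th17 (adjusted p = 0.0183). Itgae, the integrin that TGF-beta induces on tissue T cells, had 2 Th17-alone regions and no promoter peak. Skil, a repressor of SMAD factors, had a Th2-alone intron region at 84.5 and 88.2.

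Genes of naive T cells had shared regions that moved in either direction. Among 11 genes, 40 of 286 regions (14.0%) were called in Th2 alone and 7 (2.45%) in Th17 alone, and of 151 shared regions 10 (6.62%) ranked higher in Th2 and 5 (3.31%) higher in Th17. Against the shares of all regions, 9.31% and 3.13% called in a subset alone and 3.29% and 0.712% of shared regions, all but the Th17-alone share were higher. Foxp1 had the largest difference of the list, in the printed intron region, which was at 96.9 and 95.4 in Th2 and 29.6 and 33.1 in Th17 (score difference -2.26, SE 0.20, adjusted p = 0.00046). The gene had 20 Th2-alone and 3 Th17-alone regions among 75. A Th17-alone region of 285 bases in the gene, 14.5 kb past a start, was at 86.5 and 88.5 in Th17. Foxp1 therefore had strong elements that favoured either subset within a gene body.

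Klf2, a factor that keeps T cells in circulation, had a shared region 3.14 kb past its start at 87.2 and 82.4 in Th2 and 42.1 and 45.8 in Th17 (adjusted p = 0.0162). S1pr1, the receptor that lets T cells leave lymph nodes, had 3 shared upstream regions higher in Th2, among them that at 45.8 kb, at 95.7 and 96.9 in Th2 and 83.6 and 80.3 in Th17 (adjusted p = 0.0071), and 1 downstream region higher in Th17, at 82.5 and 74.6 in Th2 and 93.0 and 94.2 in Th17 (adjusted p = 0.0279). Lef1, a partner of beta-catenin, had 2 shared upstream regions higher in Th17 and none higher in Th2. That 52.8 kb away was at 67.0 and 61.1 in Th2 and 90.4 and 86.3 in Th17 (adjusted p = 0.0304), and that 83.8 kb away was at 38.6 and 27.9 in Th2 and 78.2 and 78.5 in Th17 (adjusted p = 0.0358).

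Il7r, the receptor for the survival cytokine interleukin 7, had 5 Th2-alone regions, the strongest in an intron 9.0 kb past the start at 84.4 and 87.9. Its printed region 44.9 kb upstream was at 58.9 and 54.7 in Th2 and 90.5 and 92.0 in Th17 (score difference 1.19, SE 0.19, adjusted p = 0.0051). Bach2, a repressor that holds back effector genes, had a shared intron region 44.0 kb past a start at 91.9 and 88.5 in Th2 and 65.5 and 50.9 in Th17 (adjusted p = 0.0125), and a region 72.5 kb upstream at 49.4 and 58.9 in Th2 and 83.0 and 84.1 in Th17 (adjusted p = 0.0492). The call at this last region held in 4 of 10 alternative settings.

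Genes of Th1 cells, which neither culture was set to produce, had 9 of 87 regions (10.3%) called in Th2 alone and 3 (3.45%) in Th17 alone, near the shares of all regions. At Ifng, 1 weak upstream region was called in Th2 alone (29.9 and 39.5), and a region 36.3 kb past the start was at 82.7 and 76.3 in Th2 and at 39.8 in Th17 replicate 3 alone, so that it entered no set. The 3 other regions that were called in a subset alone or passed the test favoured Th17. The printed region 17.7 kb past the start was at 63.1 and 56.7 in Th2 and 90.2 and 82.4 in Th17 (adjusted p = 0.0427), and regions 45.5 kb and 54.1 kb past it were called in Th17 alone at 77.3 and 75.7 and at 74.3 and 66.6. The Ifng promoter was called in no library. Stat4, which carries interleukin 12 signals, had a shared region 16.4 kb upstream at 96.5 and 93.3 in Th2 and 84.7 and 78.8 in Th17 (adjusted p = 0.0263). Of 11 general T cell genes such as Cd3e and Lck, 10 had a promoter peak in all 4 libraries, and 18 of their 109 regions (16.5%) were called in Th2 alone and 3 (2.75%) in Th17 alone. This Th2-alone share was as far above the 9.31% of all regions as that of the Th2 genes, at 16%. Within that list Cd2, an adhesion receptor, held the difference with the lowest p, 63.0 kb from its start at 97.5 and 98.6 in Th2 and 75.4 and 45.7 in Th17 (adjusted p = 0.0017).

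**Figure D3:**
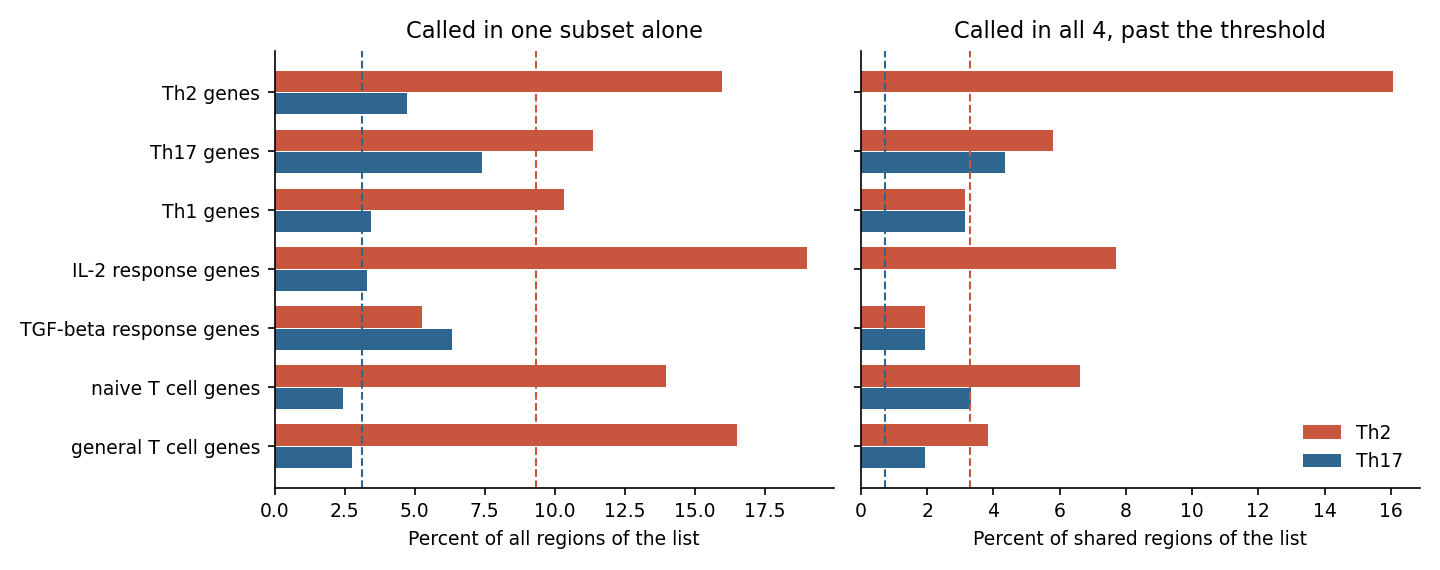
Percent of the regions nearest to each gene list that were called in a subset alone (left, of all regions of the list) or that passed the limma test among regions called in all 4 (right, of the shared regions of the list), in red for Th2 and blue for Th17. Dashed lines give the same percents over all regions within 100 kb of a start, 9.31 and 3.13 on the left and 3.29 and 0.712 on the right.

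Over all genes, those with the most Th2-alone regions were Pde4d with 21, Foxp1 and Ank2 with 20 each, Pde4b and Vav3 with 15 each, Mei4 with 13, Inpp4b, Zbtb18 and Arhgef38 with 12 each and Gramd1b with 11. Pde4d and Pde4b encode enzymes that break down cyclic AMP, Vav3 an exchange factor downstream of antigen receptors, and Inpp4b a phosphatase of signalling lipids. Pde4b had 4 shared regions higher in Th2 and 0 higher in Th17, Vav3 had 3 and 0, and Pde4d 2 and 0. Vav3 had the highest density, with 15 of 38 regions called in Th2 alone. Pde4d had 21 of 222, with mean percentiles of up to 61.3, and 6 Th17-alone regions. Over all regions within 100 kb of a start, 9.31% were called in Th2 alone and 3.13% in Th17 alone. The Th2-alone share at Pde4d was thus near that of all regions. The genes with the most Th17-alone regions were Rapgef5 and Adgrl2 with 13 each, Tcerg1l with 11, Cdh4 with 10, Eps8 and Shank2 with 8 each, Lmntd1 and Irx3 with 7 each and Tgfbr2 and Tle4 with 6 each. At 8 of these 10 genes no Th17-alone region had a mean percentile over 52.3, and at Tgfbr2 and Tle4 the strongest reached 83.5 and 82.7. Tgfbr2, a receptor chain for TGF-beta, also had 5 Th2-alone regions. Rapgef5, an activator of Rap proteins, had 3 shared regions higher in Th2 and 0 higher in Th17.

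The shared regions with the lowest p in favour of Th2 were those nearest to Mterf1b, Kl, Actr3, Snx14, Tiam1, Arnt2, Plxnc1, Arrdc3, Cd226 and Ddit4, and none lay at a start, at distances of 12.8 to 92.0 kb. The region 21.6 kb past the Mterf1b start was at 99.6 in both Th2 libraries and at 59.2 and 64.4 in Th17 (adjusted p = 5.35e-05). The region 40.2 kb upstream of Actr3, which encodes a subunit of the actin-branching complex, was at 99.1 and 99.0 in Th2 and 62.2 and 57.2 in Th17 (adjusted p = 0.00011). The Cd226 region, in an intron of this costimulatory receptor gene, was at 98.0 and 98.8 in Th2 and 62.1 and 67.0 in Th17 (adjusted p = 0.00036). In all 10 the Th2 libraries lay above percentile 97.9 and the Th17 libraries between 57.2 and 85.5. These were thus among the strongest regions of Th2 cells and ranked lower, though in part still high, in Th17 cells. Their SEs were 0.136 to 0.158, against a median of 0.242 over shared regions.

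The shared regions with the lowest p in favour of Th17 were nearest to Aqr, Tle4, Hsdl1, Ifngr1, Dnajc10, Mgat1, Nfatc3, Nsun6, Epb41l2 and Bbx. The region at the start of Hsdl1 had the largest shift among all 414, at 24.1 and 10.4 in Th2 and 91.5 and 94.4 in Th17 (adjusted p = 0.0014). The region 93.2 kb upstream of Ifngr1, an interferon gamma receptor chain, was at 12.1 and 27.0 in Th2 and 93.8 and 91.1 in Th17 (adjusted p = 0.0016). The region 3.97 kb upstream of Nfatc3, a factor activated by calcium, was at 38.5 and 40.3 in Th2 and 89.1 and 94.1 in Th17 (adjusted p = 0.0024). Mgat1, a gene for an enzyme of N-glycan synthesis, lay near the top of every list, at 92.9 and 91.7 in Th2 and 99.6 and 99.2 in Th17 (adjusted p = 0.0023), and its direction turned in 1 of 10 alternative settings. These 10 regions passed in 8 or 9 of the alternative settings that gave a value.

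The strongest Th2-alone regions were nearest to Grk5, Ppp2r3a, Tmcc1, Tex30, Lrrc6, Plrg1, Dars, Ttll1, Gatad1 and L3mbtl3, at mean percentiles of 99.8 down to 96.6. That at Grk5, a receptor kinase gene, was 214 bases long and lay wholly in a masked repeat, which was not so at the other 9 (0 to 42.5% repeat). The region 17.7 kb upstream of Ppp2r3a, a subunit gene of a protein phosphatase, was 1769 bases long and at 99.6 and 99.7. The strongest Th17-alone regions included those nearest to Iyd, Psmg1, Fndc7, Ostm1, Ripor2, Krt28, Tdrd3, Gsdme and Ctsc, at mean percentiles of 95 down to 90.3. The region 23.1 kb upstream of Iyd was at 95.6 and 94.5 in Th17. None of these genes is on the lists of Th2 or Th17 genes, and 16 Th17-alone regions reached a mean percentile of 90, against 229 Th2-alone regions.

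Regions that differed were rarely promoters. A transcription start lay within 1 kb of 3.25% of Th2-alone and 1.52% of Th17-alone regions, against 21.2% of shared regions and 8.26% of all regions. Among the 107380 regions called in other combinations of libraries the share was 2.14%, so a low share was not particular to regions called in a subset alone. The median distance to a start was 39946 bases for Th2-alone, 55665 for Th17-alone and 24360 for shared regions. Among shared regions the test called 0.705% higher in Th2 and 0.182% higher in Th17 where a start lay inside the region, and 4.10% to 4.40% and 0.724% to 1.14% at 1 to 100 kb. The median absolute shift was 1.79 percentile points at starts and 6.95 to 7.46 points at 1 to 100 kb. Near percentile 100 a small shift in points can be a large one in normal scores. At the Mgat1 start 7.13 points were a score difference of 1.11. The size of the shift in scores was not compared by distance. Counted with the starts of all annotated genes the shares within 1 kb were 6.97% for Th2-alone and 5.03% for Th17-alone regions, and they were 5.50% and 2.05% with a fold enrichment of at least 2.2. Without Th2 replicate 3 the Th17-alone share was 2.34% and stood above the Th2-alone share of 2.09%.

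**Figure D4:**
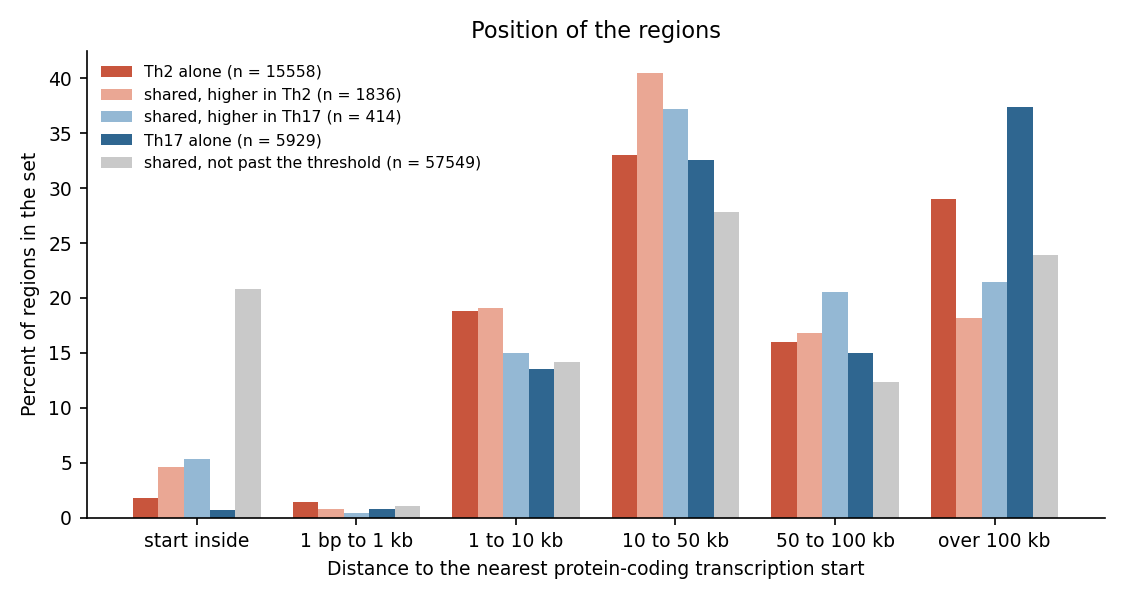
Percent of the regions of each set (y axis) by distance to the nearest protein-coding transcription start (x axis). A start lies inside 20.8% of shared regions that did not pass the test, against 1.81% of Th2-alone, 0.725% of Th17-alone, 4.63% of shared regions higher in Th2 and 5.31% of shared regions higher in Th17.

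Regions called in Th2 alone lay near shared regions that ranked higher in Th2. Near the 291 genes with at least 5 Th2-alone regions, 152 of 2306 shared regions (6.59%) ranked higher in Th2 and 16 (0.694%) higher in Th17, with a median shift of -3.46 points (Th17 minus Th2). Near the 14576 genes with no Th2-alone region, 1.95% of 22774 shared regions ranked higher in Th2. For Th17-alone regions the share of calls showed no steady rise, while the median shift moved towards Th17. This shift (Th17 minus Th2) was -0.572 points near genes with no Th17-alone region and -0.544 near those with at least 1. Near genes with at least 3 it was -0.0027 and near those with at least 5 it was 2.34. Shared regions higher in Th17 made up 0.572% of 33413 near genes with no Th17-alone region, 1.10% near genes with at least 1, 0.939% near the 180 genes with at least 3 and 0.662% (3 of 453) near the 39 genes with at least 5. These shares are descriptions over regions of the same libraries.

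The sets differed in most of the words marked in the printed sequences. The AP-1 word was in 21.4% of Th2-alone regions, 13.1% of Th17-alone regions and 12.6% of all regions, and the GATA word in 19.5%, 11.2% and 12.5%. The word TTCNNNGAA of STAT factors was in 12.4% of Th2-alone, 8.75% of Th17-alone and 8.63% of all regions. The RUNX word was in 8.28% of Th2-alone, 11.4% of Th17-alone and 7.23% of all regions, and the TCF word, which differed little between the sets, in 6.74%, 7.49% and 5.54%. Th2-alone regions thus held AP-1, GATA and STAT words more often than regions at large. The RUNX word was more frequent than in all regions in both sets, and most so in Th17-alone regions.

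Shared regions gave the same order. Those higher in Th2 held the AP-1 word in 27.8% and the GATA word in 18.6%, and those higher in Th17 in 13.5% and 11.4%. The RUNX word was in 20.5% of shared regions higher in Th17 and 11.2% of those higher in Th2, and the TCF word in 9.42% and 7.90%. The word TCACACC of T-box factors was in 4.41% of Th2-alone, 4.74% of Th17-alone and 4.52% of all regions, and the word CCGGAAG of ETS factors, frequent at promoters, in 1.15%, 1.35% and 2.43%. The median GC content of the windows was 45.7% for Th2-alone, 47.7% for Th17-alone and 48% for all regions, and 15.4%, 22.9% and 26.4% of these regions were mostly masked repeats. The part of base composition in the word shares was not tested.

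Word shares rose with the strength of a region. From regions with a mean percentile of up to 25 to those over 75, the AP-1 word went from 11.3% to 31.6% of Th2-alone regions and the GATA word from 13% to 28%. Over all distal regions of the 2 Th2 libraries (over 1 kb from a start), which include the Th2-alone regions, they went from 9.33% to 22.3% and from 12.5% to 15.1%. In Th17-alone regions the RUNX word went from 6.91% to 19.4% and the TCF word from 4.59% to 13.2%, against 6.22% to 10.5% and 4.86% to 6.86% over the like regions of the 2 Th17 libraries. The AP-1 word rose in Th17-alone regions as well, from 8.62% to 21%, against 8.91% to 17.6% over those like regions. The GATA word stayed between 11% and 12.1% in Th17-alone regions of every strength.

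**Figure D5:**
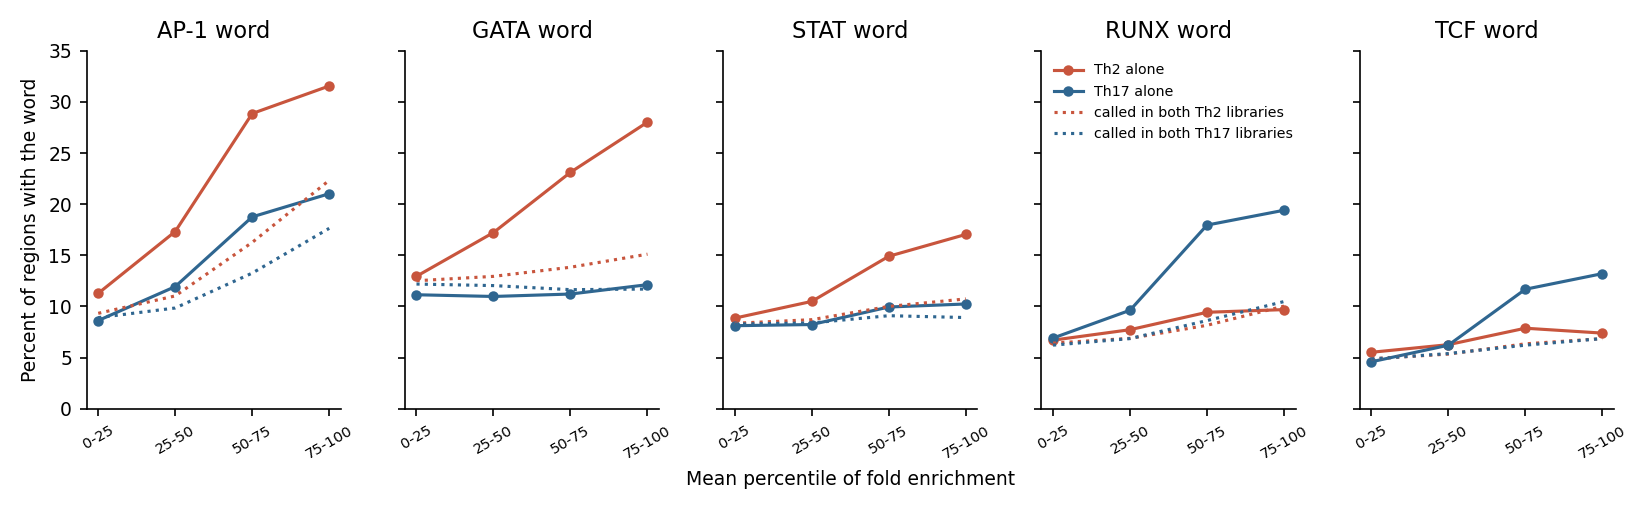
Percent of regions whose central 300 bases hold the word of each factor family (y axis) by the mean percentile of fold enrichment in the subset that called them (x axis), with solid lines for regions called in a subset alone and dotted lines for all regions over 1 kb from a start that both libraries of the subset called. AP-1 and GATA words rise most in Th2-alone regions, to 31.6% and 28%, and RUNX and TCF words in Th17-alone regions, to 19.4% and 13.2%. The AP-1 word also rises in Th17-alone regions, to 21%.

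The word shares also followed the rank shift across shared regions over 1 kb from a start, most of which did not pass the test. The AP-1 word was in 21.7% of the 1667 regions shifted by over 30 points towards Th2, in 12.3% of the 28967 within 10 points of no shift and in 13% of the 931 shifted by over 30 points towards Th17. The GATA word was in 16.6%, 11.2% and 12.9% of these. The RUNX word was in 9.48%, 7.5% and 12.4%, so it was more frequent at both ends than in the middle.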

How the data were processed

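The authors trimmed reads with Trim Galore 0.4.3, aligned read pairs to mm10 with Bowtie2, removed duplicates with Picard and called broad peaks with MACS2 2.1.0 from paired fragments, library by library, without a control or a local background. With such calls repeats present in many copies can be called. The deposited lists give a fold enrichment (a linear ratio, used as its percentile within a list), a −log10 p and a −log10 q. Lists held 94854 to 136961 peaks on chromosomes 1 to 19. They hold no read counts, so the number of libraries limits precision. Th9 lists were not used here.

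Peaks that overlapped or touched were joined (1 bp), and a region in a list took its highest percentile. Shared regions were compared as normal scores of percentiles, Th17 minus Th2, with limma 3.58.1 (lmFit, eBayes with trend, two-sided, Benjamini-Hochberg adjusted p under 0.05). The fit was run on simulated data whose spread followed the mean, as the trend assumes. That run cannot check this assumption. An exact permutation test of 2 against 2 libraries cannot give a p below 0.333. Starts of protein-coding genes came from GENCODE M21, up to 100 kb away, and sequence from RefSeq's GRCm38. Intervals for shares were exact binomial at 95%. Named genes were those of the lists, the 10 genes with the most regions called in a subset alone, and the 10 regions of lowest p or highest percentile in each direction, without Gm and Rik names. A few of these are not reported here. The members and lists were chosen with earlier results of these data known. Joining was computed in Python 3.11.15 and checked with bedtools 2.31.1.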

Additional observations from a re-analysis of the deposited data

How the results depend on the processing

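With 2 libraries a subset, counts moved with the settings more than the direction of named regions did. The direction had little room to turn, since in every called shared region the libraries did not overlap between subsets. Named calls near the threshold did not all hold. In limma with a length-weighted mean in place of the highest percentile, the region 72.5 kb upstream of Bach2 had an adjusted p of 0.0538. The regions 62.1 kb upstream of Smad7 and 63.2 kb upstream of Rbpj had 0.0579 and 0.057. A −log10 q limit of 5 left 7544 Th2-alone and 3035 Th17-alone regions, with 5.22% and 2.04% of them within 1 kb of a start. A fold enrichment of at least 2.2 left 2782 Th17-alone regions (shares of 5.50% and 2.05%) and 188 shared regions higher in Th17. Bins of 1 kb gave 31151 and 11357, since a region spans several bins, and the starts of all annotated genes gave 6.97% and 5.03%. In limma, re-ranking among shared regions gave 1169 higher in Th17, quantile-normalized log2 fold enrichment 2932 and 1605, and no trend 0 and 0 (5192 and 2378 at an unadjusted p under 0.05). Leaving out each library gave 18873 to 43237 Th2-alone and 9693 to 24434 Th17-alone regions, since 1 library then decides for its subset, shares within 1 kb of 2.09% to 3.51% and 1.15% to 2.34%, and 1534 to 2836 and 95 to 1424 shared regions higher in Th2 and in Th17. Where a subset keeps 1 library, that library is assumed to vary like the other subset. Where no reason is given the cause was not tested. Of the alternative values of these counts and shares, 34 moved and 18 stayed within 1.5 times or, for shares, within the 95% interval, and of those of list counts 14 moved and 26 stayed.

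The replicate block gave 3556 regions higher in Th2 and 1110 higher in Th17, including all 1836 and 414 called without it. The difference between replicates 1 and 3 correlated at -0.0043 between subsets over shared regions. This value cannot show whether libraries of equal number share an animal or culture, which the labels do not say. Depth is known only as background coverage, and a region missing from a list may lie just under its lowest fold.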
